A study of Mus musculus with 12 samples.

Results

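The genes described here encode 8 C-type lectin receptors of myeloid cells, chosen by gene symbol from a table of 36047 genes measured in small intestinal (SI) eosinophils. They were Clec4e, Clec4d, Clec4n, Clec4a2, Clec5a, Clec7a, Clec10a, and Clec12a, and all 8 were found in the table. Eosinophils of the proximal SI lamina propria were sorted into α4β7+, α4β7− CD22−, and CD22+ subsets, with 4 libraries for each of the 3 subsets, 12 in all. Every library came from wild type female C57BL/6J mice according to the labels, with 2 mice pooled per library and no treatment. The labels give no age, and the general methods put mice at 6 to 12 wk and mention both sexes. The gate kept live cells with CD45, CD11b, and SiglecF and without MHCII or Ly6G, and the subsets were separated on the integrin α4β7, which brings leukocytes into the gut, and on CD22, a sialic acid-binding inhibitory receptor. In the study's order of adaptation to the SI the α4β7+ subset comes first, and the other subsets are called the later subsets.

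C-type lectin receptors recognize sugars, lipids, and other ligands of microbes, damaged cells, or the body's own glycoproteins. The activating receptors signal through a tyrosine motif called ITAM, carried by a partner chain or by the receptor itself, which recruits the kinase SYK and then the adaptor CARD9 and turns on NF-κB target genes. The inhibitory receptors carry an ITIM motif that recruits phosphatases. Most of what is known of these receptors comes from macrophages, dendritic cells, and neutrophils, where they sense fungi, mycobacteria, and dead cells.

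Values are DESeq2-normalized counts, which are read counts scaled so that libraries can be compared. A gene was tested with limma, on log2(normalized count + 1), when its average over the 12 libraries was above 10, and it was called different where the p adjusted by Benjamini-Hochberg was 0.05 or less and the subsets differed by 1.5-fold or more. Of the 8 receptor genes, 6 were among the 15249 genes tested. Clec5a, with an average of 9.37, lay just under the limit, Clec10a, with 6.30, lay further below it, and Clec4d, with 12.2, lay just over it. Fold changes are on the log2(normalized count + 1) scale, which understates the change of low genes, and all p-values measure the spread between these pooled libraries.

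The sum of normalized counts in a library lay between 14286474 and 16915755, with 19760 to 21960 genes above 0. A floor of 3 reads corresponded to about 2.56 to 3.48 normalized counts, for counting error only. The sorted markers followed the labels. Cd22 averaged 1114.9 ± 175.0 (SD, n = 4) in the α4β7+ subset, 4461.7 ± 934.2 in the α4β7− CD22− subset, and 13333.8 ± 1587.8 in the CD22+ subset. Itgb7, the β7 chain, averaged 2525.8 ± 519.7, 220.4 ± 81.0, and 155.8 ± 86.5. Siglecf, which marks eosinophils, was between 6883.5 and 8594.3 in every library. Because these are bulk samples, fewer cells carrying a receptor and less receptor RNA per cell cannot be told apart.

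Of the 6 receptor genes tested, 4 were called lower in the α4β7− CD22− than in the α4β7+ subset, 4 were called lower in the CD22+ than in the α4β7+ subset, and 1 was called lower in the CD22+ than in the α4β7− CD22− subset. One of the 4 genes called in the CD22+ with α4β7+ comparison, Clec4d, passed the limit on averages only through its α4β7+ values, and 3 genes were called there with no filter or with a filter at 50. None was called higher by limma, and 0 of the 6 had a higher estimate at an unadjusted p under 0.05 in any of the 3. Among all genes tested, 4.35% were called lower and 3.70% higher in the first comparison, 6.39% and 5.60% in the second, and 0.393% and 0.210% in the third. The members' median log2 fold changes were -1.47, -1.90, and -0.20, against medians over all genes of 0.003, 0.014, and -0.001. The 8 genes, and the gene lists below, were chosen with earlier results of these data known. Their values beside those of all genes are therefore a description and not a test of the set. In the 3 comparisons, 4, 4, and 1 of the 6 genes had every library of the later subset below every library of the earlier one, which held for 9.80%, 11.8%, and 3.72% of all genes. Clec4d is among the 4 in the second comparison and enters the medians, so these values are subject to the filter too. The comparisons with the α4β7+ subset share the α4β7+ libraries, so their counts are not independent. The plot of values by library shows all 8 genes.

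**Figure D1:**
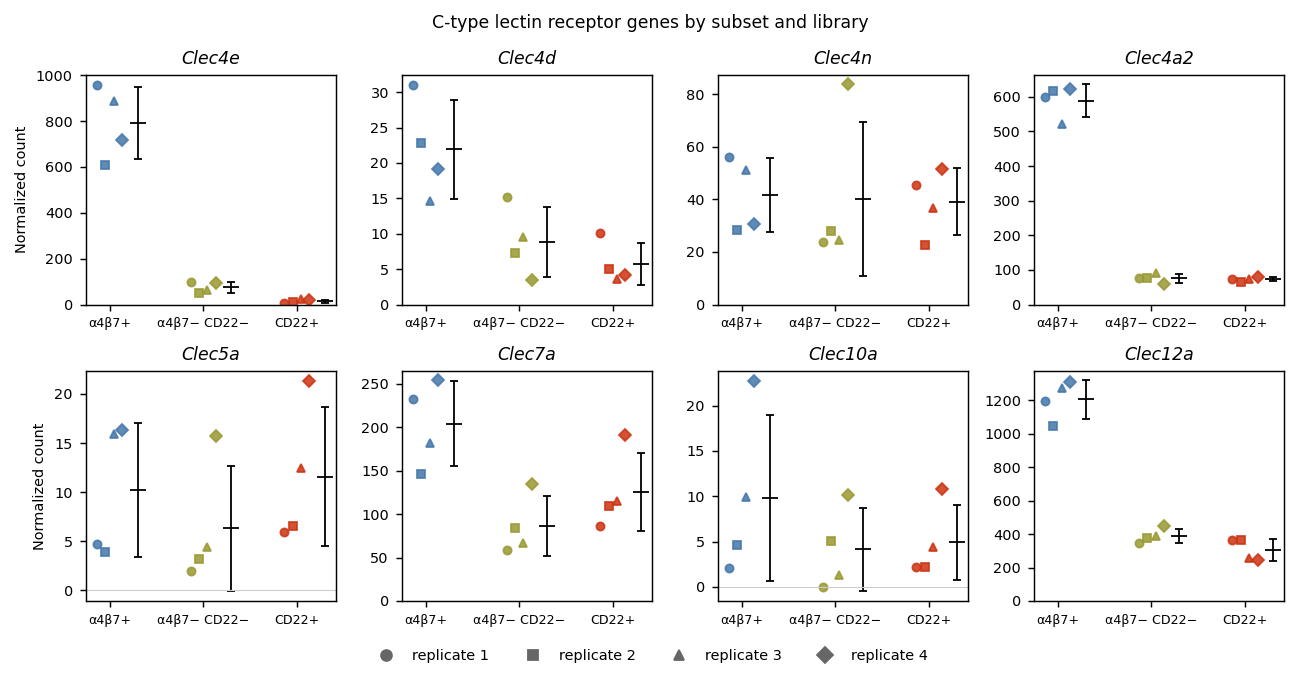
Normalized counts (linear axis from 0, a separate scale for each gene) of the 8 C-type lectin receptor genes in the 3 eosinophil subsets. Each symbol is a library, shaped by its replicate number, and black bars show mean ± SD of 4 libraries. Clec4e, Clec4a2, and Clec12a are far higher in the 4 α4β7+ libraries than in any other library, and Clec4n overlaps between all subsets.

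Promoter windows of 250 bases before to 50 bases after the transcription start (RefSeq, GRCm38.p6) were found for 6 of the 8 genes. Those of Clec4e, Clec12a, and Clec4a2 are printed because these 3 genes showed the largest differences between subsets that held in every library. The windows are chr6:123289822-123290121 on the minus strand, chr6:129349994-129350293 on the plus strand, and chr6:123122440-123122739 on the plus strand. Capitals mark matches on either strand to 4 short motifs: the PU box GAGGAA of the myeloid factor PU.1, the AP-1 site TGANTCA, the C/EBP site TTGCNNAA, and the TATA box TATAAA.
Clec4e: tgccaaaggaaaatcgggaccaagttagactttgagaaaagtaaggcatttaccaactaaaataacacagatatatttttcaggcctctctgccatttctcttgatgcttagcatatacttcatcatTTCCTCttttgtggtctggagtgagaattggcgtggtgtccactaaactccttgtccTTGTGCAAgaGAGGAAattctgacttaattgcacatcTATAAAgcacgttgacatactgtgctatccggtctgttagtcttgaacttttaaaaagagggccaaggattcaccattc
Clec12a: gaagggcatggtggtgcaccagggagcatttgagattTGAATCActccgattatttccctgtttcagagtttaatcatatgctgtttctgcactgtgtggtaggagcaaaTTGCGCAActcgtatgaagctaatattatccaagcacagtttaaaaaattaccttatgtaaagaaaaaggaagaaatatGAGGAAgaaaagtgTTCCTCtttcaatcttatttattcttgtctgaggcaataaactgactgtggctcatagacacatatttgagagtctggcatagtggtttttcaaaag
Clec4a2: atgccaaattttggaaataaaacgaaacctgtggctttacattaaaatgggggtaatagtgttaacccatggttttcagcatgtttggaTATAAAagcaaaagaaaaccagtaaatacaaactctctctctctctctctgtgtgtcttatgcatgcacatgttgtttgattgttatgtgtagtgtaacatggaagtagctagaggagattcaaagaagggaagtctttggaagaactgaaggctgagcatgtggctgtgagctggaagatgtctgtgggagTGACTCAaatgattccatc

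The Clec4e window held PU box matches at bases 128 to 133 and 195 to 200, counted from 1 at the left end, a C/EBP match at 185 to 192, and a TATA box at 222 to 227. The Clec12a window held PU box matches at 190 to 195 and 204 to 209, an AP-1 match at 38 to 44, and a C/EBP match at 111 to 118 that reads the same on both strands. The Clec4a2 window held an AP-1 match at 282 to 288 and a TATA box at 90 to 95, and no PU box match lay in these 300 bases. The Clec12a and Clec4a2 windows lie around a RefSeq start inside the longer gene spans of the annotation given below for these genes, so the sequence at the outer 5′ end of these spans was not searched. Of the 6 genes with a window, 5 had a PU box match, Clec4d, Clec5a, and Clec7a included, and Clec7a had a pair of overlapping windows that hold the same match. Among all 32544 mouse windows of this length, 28.1% held a PU box, 7.79% an AP-1 site, 10.8% a C/EBP site, and 13.6% a TATA box. These matches describe letters, and no binding was measured.

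Among the activating receptors, Clec4e stood out. It encodes Mincle, which binds mycobacterial cord factor and a protein released by dying cells and signals through the ITAM chain FcRγ. The gene lies at chr6:123281789-123289870 on the minus strand (GRCm38). In the α4β7+ libraries, Clec4e was at 955.6, 609.9, 887.1, and 715.5 normalized counts. It was at 98.96, 49.41, 63.54, and 92.35 in the α4β7− CD22− libraries and at 8.964, 10.40, 23.48, and 18.03 in the CD22+ libraries. The 3 subsets did not overlap at any point. Clec4e was 10.5-fold lower in the α4β7− CD22− than in the α4β7+ subset (log2 fold change -3.40, SE 0.303, adjusted p = 2.97e-06 by limma). It was 51.5-fold lower in the CD22+ than in the α4β7+ subset (log2 fold change -5.69, adjusted p = 6.39e-09 by limma). Between the CD22+ and α4β7− CD22− subsets it was 4.89-fold lower (log2 fold change -2.29, SE 0.303, adjusted p = 0.0014 by limma), which was the 24th smallest p of the 15249 genes. Clec4e was the 1 receptor gene of the 6 tested that was called in all 3 pairwise comparisons. These calls held under each of the 24 alternatives tried for each comparison.

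Clec4d, next to Clec4e at chr6:123262111-123275265 on the plus strand, encodes MCL, which associates with Mincle and FcRγ. Its values were low, at 31.07, 22.78, 14.67, and 19.14 in the α4β7+ libraries, 15.25, 7.351, 9.518, and 3.412 in the α4β7− CD22− libraries, and 10.05, 5.083, 3.665, and 4.149 in the CD22+ libraries. The α4β7+ libraries were all above the CD22+ libraries, and the highest α4β7− CD22− library lay above the lowest α4β7+ library. With means of 21.92 ± 6.95, 8.883 ± 4.94, and 5.737 ± 2.94, Clec4d passed the limit of 10 on the average only through the α4β7+ subset, so its tests against that subset are not independent of the filter and support nothing here. Clec4d was 3.49-fold lower in the CD22+ than in the α4β7+ subset (log2 fold change -1.80, SE 0.515, adjusted p = 0.0211 by limma). This call was lost without α4β7+ replicate 1 (adjusted p = 0.0649), without CD22+ replicate 3 (0.0527), without the replicate 4 libraries of all subsets (0.0601), and with no filter on low genes (0.0534). Between the α4β7− CD22− and α4β7+ subsets the log2 fold change was -1.31 (95% interval -2.42 to -0.21, adjusted p = 0.109 by limma), which did not pass. Between CD22+ and α4β7− CD22− it was -0.49 (-1.59 to 0.61).

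Clec4n, the third gene in this row at chr6:123229843-123247021, encodes Dectin-2, an FcRγ-coupled receptor for fungal mannans. It was at 56.16, 28.53, 51.10, and 30.58 in the α4β7+ libraries, 23.76, 28.06, 24.62, and 83.86 in the α4β7− CD22− libraries, and 45.64, 22.66, 36.60, and 51.69 in the CD22+ libraries. The subsets overlapped throughout, with means of 41.59 ± 14.1, 40.08 ± 29.3, and 39.15 ± 12.6 (SD, n = 4). The log2 fold changes were -0.21 (95% interval -1.10 to 0.69), -0.09 (-0.98 to 0.81), and 0.12 (-0.77 to 1.01), with adjusted p of 0.803, 0.917, and 0.965 by limma. Differences of up to 0.69 log2 units in either direction lie within all 3 intervals. One α4β7− CD22− library, replicate 4, lay far above the other 3 of its subset. Without the replicate 4 libraries of all subsets, the first of these log2 fold changes was -0.75 (adjusted p = 0.269).

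Clec7a, at chr6:129461591-129472779 on the minus strand, encodes Dectin-1, the receptor for fungal β-glucan, which carries a single-tyrosine form of the ITAM in its own tail. Its values were 232.3, 146.0, 182.5, and 254.8 in the α4β7+ libraries, 58.40, 84.39, 66.58, and 134.9 in the α4β7− CD22− libraries, and 86.29, 109.4, 115.4, and 190.8 in the CD22+ libraries. Every α4β7− CD22− library was below every α4β7+ library, and the highest CD22+ library reached into the α4β7+ range. Clec7a was 2.42-fold lower in the α4β7− CD22− than in the α4β7+ subset (log2 fold change -1.28, SE 0.288, adjusted p = 0.00745 by limma). In the CD22+ subset the log2 fold change from α4β7+ was -0.73 (95% interval -1.34 to -0.11, adjusted p = 0.0924 by limma) and was not called. It passed without CD22+ replicate 4, at -0.95 (adjusted p = 0.0300), and in the fit blocked on replicate number (adjusted p = 0.0283). From α4β7− CD22− to CD22+ the estimate was positive, at 0.55 (-0.06 to 1.17, adjusted p = 0.594 by limma), so a level in the CD22+ subset above that of the intermediate subset was not shown.

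Clec5a and Clec10a had the lowest average normalized counts of the 8 genes. Clec5a, at chr6:40574894-40585821, encodes MDL-1, which pairs with the ITAM chain DAP12. It was at 4.726, 3.954, 15.90, and 16.28 in the α4β7+ libraries, 2.018, 3.177, 4.376, and 15.68 in the α4β7− CD22− libraries, and 5.973, 6.605, 12.43, and 21.27 in the CD22+ libraries. Clec10a, at chr11:70156197-70170834, encodes MGL1, an endocytic receptor for galactose-type sugars on macrophages and dendritic cells. It was at 2.096, 4.673, 9.928, and 22.66, then 0, 5.109, 1.365, and 10.18, then 2.148, 2.229, 4.393, and 10.84 in the same order of subsets. Both genes overlapped between all subsets, 1 of the 12 libraries was at or under the floor for Clec5a, and 5 were for Clec10a. Exact two-sided permutation tests, whose smallest possible p is 0.0286 for 4 against 4 libraries, gave p of 0.257, 0.629, and 0.171 for Clec5a and 0.286, 0.457, and 0.600 for Clec10a in the 3 comparisons before adjustment. Of the 31-base words in the Clec10a transcript, 15.7% also occur in its paralog Mgl2, so its low values are uncertain where reads of the 2 genes were divided.

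One replicate number recurred among the high values of these low or moderate genes. Clec7a, Clec4n, Clec5a, and Clec10a were each highest in replicate 4 of the α4β7− CD22− subset and of the CD22+ subset. The summed macrophage genes C1qa, C1qb, and C1qc were also highest there. Their sum was 832.8 in α4β7− CD22− replicate 4 against 322.4 to 423.5 in the other 3, and 1096.4 in CD22+ replicate 4 against 319.3 to 639.4. In the α4β7+ subset, replicate 4 likewise had the highest C1q sum, 622.6 against 395.9 to 583.0, and the highest Clec7a, Clec5a, and Clec10a, but its Clec4n, at 30.58, was below that of replicates 1 and 3. None of the 10 monocyte and macrophage markers was called by limma in the 3 comparisons (1, 2, and 0 were lower at an unadjusted p under 0.05), and the summed list ranged over 2685.9 to 3248.4, 2179.2 to 2990.7, and 1966.2 to 3600.8 in the 3 subsets. The sum of 7 dendritic cell markers was likewise highest in replicate 4 of the later subsets, at 5804.3 and 8000.8, within subset ranges that began at 3231.7 and 3130.8, whereas in the α4β7+ subset it was highest in replicate 2, at 5140.0. Of these 7 genes 1, Itgae, was called lower in the α4β7− CD22− than in the α4β7+ subset (-0.84, adjusted p = 0.0248 by limma), against 4.35% of all genes. The part of such cells in the values of these 4 receptors was not tested. Without the replicate 4 libraries, Clec7a was called in both comparisons with the α4β7+ subset, at -1.40 and -0.83 log2 units (adjusted p = 0.0036 and 0.0361 by limma). Clec12a was highest in replicate 4 of the α4β7+ and α4β7− CD22− subsets, at 1310.8 and 448.9, and lowest in replicate 4 of the CD22+ subset, at 246.1. As the plot against the C1q genes shows, Clec4e was highest in other libraries of these subsets, and Clec4a2 was highest in CD22+ replicate 4 but lowest in α4β7− CD22− replicate 4.

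**Figure D2:**
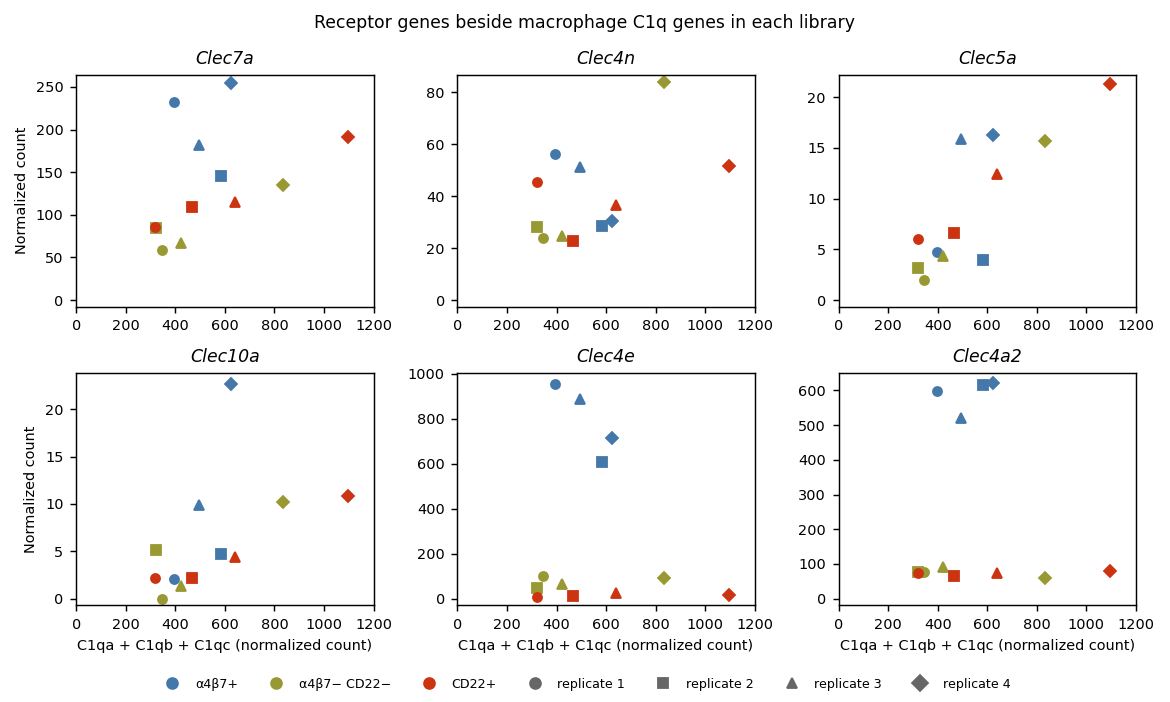
Normalized count of 6 receptor genes (vertical axis) against the summed normalized count of C1qa, C1qb, and C1qc (horizontal axis), 1 symbol per library, colored by subset and shaped by replicate number. The CD22+ library with the highest C1q sum, 1096.4, has the highest Clec7a, Clec4n, Clec5a, and Clec10a of its subset. Clec4a2 is also highest there among the CD22+ libraries, at 78.81, but lowest in the α4β7− CD22− library with the highest C1q sum, at 60.07.

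Both inhibitory receptors were called lower in each later subset than in the α4β7+ subset. Clec12a encodes MICL, an ITIM receptor that binds uric acid crystals and dampens myeloid activation, and lies at chr6:129342691-129365303 on the plus strand. It was at 1194.9, 1048.5, 1272.5, and 1310.8 in the α4β7+ libraries, 344.7, 374.3, 390.9, and 448.9 in the α4β7− CD22− libraries, and 362.7, 366.3, 255.1, and 246.1 in the CD22+ libraries. The lowest α4β7+ library, at 1048.5, was above the highest of the other 8, at 448.9. Against the α4β7+ subset, Clec12a was 3.09-fold lower in the α4β7− CD22− subset (log2 fold change -1.63, SE 0.144, adjusted p = 2.75e-06 by limma). It was 3.97-fold lower in the CD22+ subset (log2 fold change -1.99, adjusted p = 1.43e-07 by limma). The later subsets overlapped, with a log2 fold change of -0.36 (95% interval -0.67 to -0.05, adjusted p = 0.391 by limma), which was not called.

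Clec4a2, at chr6:123106428-123143999 on the plus strand, encodes DCIR1, an ITIM receptor that restrains dendritic cells. Its values were 598.5, 616.4, 521.6, and 621.4 in the α4β7+ libraries, 76.12, 76.63, 91.65, and 60.07 in the α4β7− CD22− libraries, and 73.67, 65.82, 74.38, and 78.81 in the CD22+ libraries. The difference lay between the α4β7+ subset and the other 8 libraries, which ranged together from 60.07 to 91.65. Clec4a2 was 7.72-fold lower in the α4β7− CD22− subset (log2 fold change -2.95, SE 0.153, adjusted p = 2.33e-08 by limma), the 7th smallest p of all genes tested. It was 7.96-fold lower in the CD22+ subset (log2 fold change -2.99, adjusted p = 4.81e-09 by limma). Between the later subsets the log2 fold change was -0.04 (95% interval -0.37 to 0.28), so differences beyond these bounds lie outside the interval. Of its 31-base words, 13.8% are shared with other genes, 5.92% with Clec4a4 and 5.79% with Clec4b1, and the pseudogene Gm44132 overlaps it on the same strand, so its level is uncertain where reads of shared sequence were divided.

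**Figure D3:**
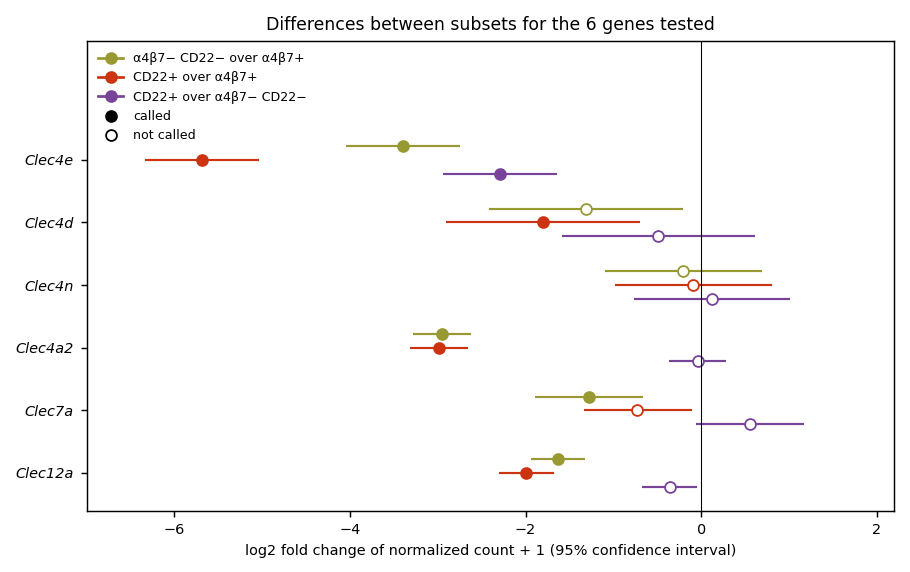
Log2 fold changes of normalized count + 1 (horizontal axis) with 95% confidence intervals for the 6 receptor genes tested, in the 3 pairwise comparisons. Filled circles were called and open circles were not. Clec4e, at -3.40, -5.69, and -2.29, is filled in all 3 comparisons, and Clec4a2 and Clec12a only in the comparisons with the α4β7+ subset.

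The α4β7− CD22− subset was also compared with the mean of both other subsets on the log2 scale. In this comparison 2 of the 6 receptor genes were called lower and none higher, against 0.367% and 0.262% of all genes. Clec4a2 was 1.45 log2 units below that mean (log2 difference -1.45, SE 0.133, adjusted p = 0.000356 by limma), the smallest p of the 15249 genes. Clec12a was at -0.64 (SE 0.125, adjusted p = 0.0213 by limma). The Clec12a call was lost without α4β7− CD22− replicate 1, 2, or 3 (adjusted p = 0.0919, 0.0811, and 0.0693) and without the variance trend (0.0726). Clec4e was at -0.55 (95% interval -1.11 to 0.01, adjusted p = 0.406 by limma), so its intermediate level was not shown to leave the midpoint of the log2 scale, and a difference between Clec12a and Clec4e in this comparison was not tested. Clec7a was at -0.91 (-1.45 to -0.38, adjusted p = 0.1 by limma) and passed without α4β7− CD22− replicate 4 (0.0463) and with the replicate block (0.0307).

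The ratio of Clec4e to each inhibitory receptor was computed after these values were seen and is given as a description. The log2 ratio of Clec4e to Clec4a2 was -0.02 to 0.76 in the α4β7+ libraries, -0.62 to 0.61 in the α4β7− CD22− libraries, and -2.91 to -1.62 in the CD22+ libraries. The α4β7+ and α4β7− CD22− ranges overlapped, and the CD22+ range lay below both. The log2 ratio of Clec4e to Clec12a was -0.87 to -0.32, -2.90 to -1.79, and -5.19 to -3.39 in the same order, with no overlap. Exact two-sided permutation tests of these ratios gave p = 0.286 between the α4β7+ and α4β7− CD22− subsets for Clec4e to Clec4a2 and 0.0286, the smallest possible, in the other 5 comparisons, but they support nothing, since the genes were paired with their values known.

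Levels were compared between genes after division by transcript length, as normalized counts per kilobase. In the α4β7+ subset the order of mean levels per kilobase was Clec12a at 482.3, Clec4e at 314.5, Clec4a2 at 237.6, Clec7a at 89.5, Clec4n at 33.8, Clec4d at 16.6, Clec10a at 4.22, and Clec5a at 2.73. In the CD22+ subset it was Clec12a at 122.9, Clec7a at 55.1, Clec4n at 31.9, Clec4a2 at 29.5, Clec4e at 6.04, Clec4d at 4.34, Clec5a at 3.09, and Clec10a at 2.10. By these means Clec4e stood behind Clec12a alone in the α4β7+ subset, although Clec4a2 held more of the summed level than Clec4e in α4β7+ replicate 2 (24.4% against 23.8%). In the CD22+ subset it stood behind 4 other genes. In the CD22+ subset, Clec4n (SD 10.3) and Clec4a2 (SD 2.18) were closer than the SD of Clec4n, and Clec4e (SD 2.70) and Clec4d (SD 2.22) were closer than either SD. In the α4β7− CD22− subset, Clec4a2 at 30.7, Clec4n at 32.6, Clec4e at 30.2, and Clec7a at 37.8 per kilobase had SDs of 5.2 to 23.8. Any pair of these means was closer than the larger SD of the pair.

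The summed level of the 8 genes per kilobase was 1017.3 to 1271.7 in the α4β7+ libraries, 264.8 to 378.9 in the α4β7− CD22− libraries, and 229.7 to 276.6 in the CD22+ libraries. Clec4e made up 23.2% to 29.8% of this sum, then 7.31% to 14.8%, then 1.35% to 4.06%, with no overlap between subsets. Clec7a made up 6.30% to 9.14%, 9.69% to 15.6%, and 14.4% to 30.3%. Clec12a held 37.6% to 42.8%, 47.4% to 56.5%, and 35.6% to 58.5%. These shares rest on the length of 1 transcript per gene and carry no test.

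**Figure D4:**
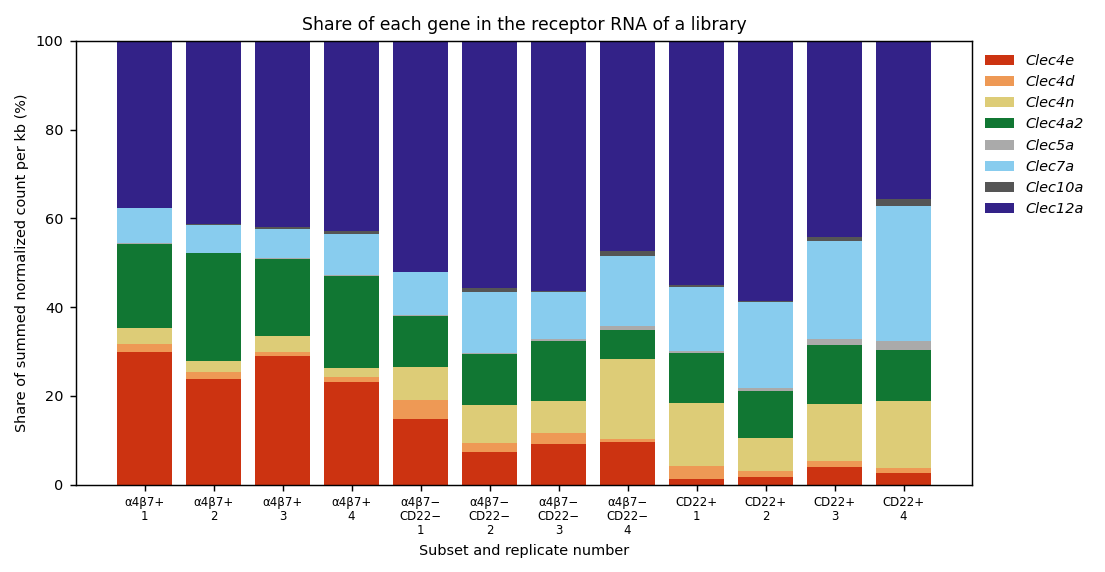
Share (%) of each of the 8 receptor genes in their summed normalized count per kilobase, as 1 stacked bar per library, ordered by subset and replicate number. Clec4e takes 23.2% to 29.8% of the bar in the α4β7+ libraries and 1.35% to 4.06% in the CD22+ libraries.

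Of the 8 genes, 7 lie on chromosome 6, and Clec4e, Clec4d, Clec4n, and Clec4a2 belong to 1 cluster of 13 annotated genes, 9 of them protein-coding, at chr6:122921848-123289870. The genes of the cluster differed in direction. Clec4a4 encodes DCIR2, an inhibitory receptor closely related to DCIR1. It was at 1479.4, 1712.9, 1518.8, and 1104.7 normalized counts in the α4β7+ libraries, 3534.6, 2980.7, 2616.9, and 2933.6 in the α4β7− CD22− libraries, and 3128.4, 2617.3, 2456.4, and 3044.6 in the CD22+ libraries. Every α4β7+ library was below every other library. Clec4a4 was called higher in the α4β7− CD22− subset (log2 fold change 1.06, SE 0.130, adjusted p = 5.82e-05 by limma) than in the α4β7+ subset. For the CD22+ subset the log2 fold change was 0.96 (adjusted p = 7.15e-05 by limma).

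Clec4b1, which encodes an FcRγ-coupled activating receptor, was called higher in the α4β7− CD22− than in the α4β7+ subset (log2 fold change 0.82, SE 0.251, adjusted p = 0.0394 by limma), although its libraries overlapped. Clec4b2, its close relative, averaged 480.5 ± 24.4, 675.8 ± 87.3, and 573.4 ± 60.7. Every α4β7− CD22− library was above every α4β7+ library (log2 fold change 0.48, adjusted p = 0.00751 by limma), but Clec4b2 did not reach the 1.5-fold limit. Clec4a1, at 8.11 to 16.0 on average, was not called, and Clec4a3, at means of 12.7, 2.83, and 6.18, was under the filter. Of the 9 protein-coding genes of the cluster, Clec4a2 was thus called lower in the CD22+ than in the α4β7+ subset with Clec4e, and Clec4a4 was called higher. The call of Clec4d was subject to the filter and to single libraries, as given above. Since Clec4a2 shares sequence with Clec4a4, called higher in both later subsets, and with Clec4b1, called higher in the α4β7− CD22− subset, the size of each difference is uncertain, and the part of shared reads was not tested.

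**Figure D5:**
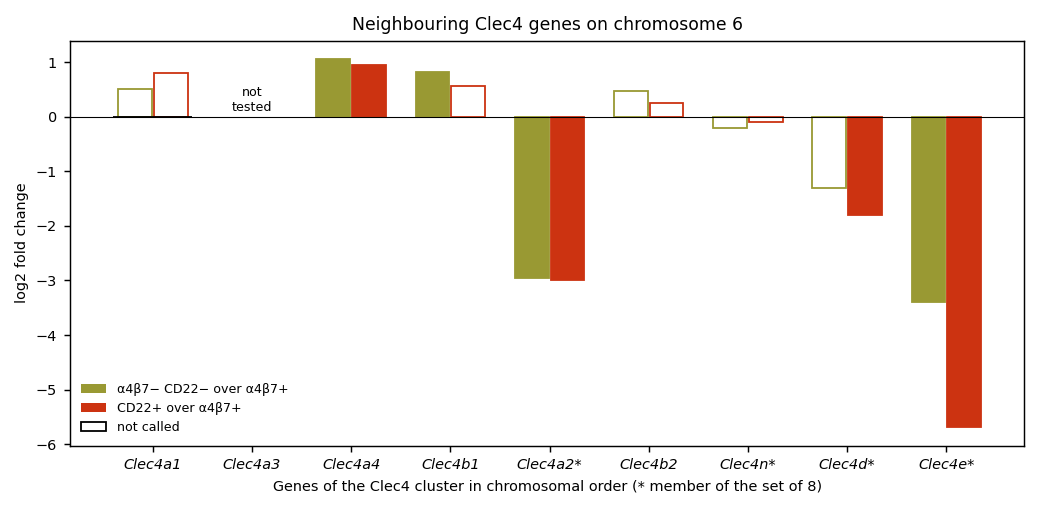
Log2 fold changes (vertical axis) of the protein-coding genes of the Clec4 cluster, in chromosomal order and with Clec4a3 marked as not tested, for the α4β7− CD22− and CD22+ subsets over the α4β7+ subset. Filled bars were called and open bars were not, and asterisks mark members of the set of 8. Clec4a2, at -2.95 and -2.99, lies between neighbors with positive values.

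Of the signalling partners of the receptors, 4 were picked for their roles with their values known. Fcer1g, the FcRγ chain used by Mincle, MCL, and Dectin-2, averaged 2007.0 ± 176.5, 2334.4 ± 186.8, and 2294.5 ± 192.6 normalized counts. Its log2 fold changes from the α4β7+ subset, 0.22 and 0.19, did not pass (adjusted p = 0.120 and 0.146 by limma). Tyrobp, which encodes DAP12, averaged 6743.9 ± 797.5, 6137.1 ± 708.6, and 5549.2 ± 837.5 and was not called. Syk averaged 17414.3 ± 1569.5, 16376.6 ± 1033.1, and 14582.5 ± 815.4, and its log2 fold change of -0.25 in the CD22+ subset (adjusted p = 0.0259 by limma) was under the 1.5-fold limit. Ptpn6, which encodes the ITIM-bound phosphatase SHP-1, averaged 10895.5 ± 808.1, 10564.0 ± 1396.1, and 9497.2 ± 578.7 and was not called.

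Of 38 genes on the activating side, from ITAM chains through Src-family kinases, Syk, Card9, and their downstream kinases, all were tested. In the α4β7− CD22− subset 2 were called higher and 1 lower than in the α4β7+ subset, in the CD22+ subset 2 and 3, and between the later subsets none, with 35, 33, and 38 not called. Of all genes tested, 3.70% were called higher and 4.35% lower in the first comparison and 5.60% and 6.39% in the second, so the counts of this list were near the background and are no result about it. Between the later subsets 2 were higher and 6 lower at an unadjusted p under 0.05. The median log2 fold changes were -0.02, -0.03, and -0.04. Card9, the adaptor that links SYK to NF-κB, was called higher, with means of 1001.6 ± 152.1, 1852.3 ± 192.8, and 1991.5 ± 229.0 (log2 fold changes 0.89 and 1.00, adjusted p = 0.000113 and 1.98e-05 by limma). Vav2, a signalling protein phosphorylated after SYK, was also higher (1.34 and 1.5), and its relative Vav3 was lower (-0.81 and -0.94). Btk, a kinase after SYK, was called lower in the CD22+ subset (-0.79). Card9 and Clec4e differed in opposite directions.

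Of 17 genes on the inhibitory side, 16 were tested. In the α4β7− CD22− subset 2 were called higher and 2 lower than in the α4β7+ subset, in the CD22+ subset 2 and 3, and between the later subsets none (2 higher and 4 lower at an unadjusted p under 0.05), with medians of -0.10, -0.07, and -0.12. The shares over all genes were again 3.70% higher and 4.35% lower, then 5.60% and 6.39%. Tnfaip3, the ubiquitin editor A20 and itself an NF-κB target, was lower by limma at -1.98 and -2.49, from 24177.4 ± 983.5 to 6185.4 ± 824.7 and 4322.9 ± 324.7. Ubash3a, a suppressor of receptor signalling, was lower (-0.67 and -0.90). Pag1 (1.26 and 1.59), an adaptor that brings a Src inhibitor to the membrane, and Dok1 (0.83 and 1.11), a negative adaptor of tyrosine kinases, were higher.

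Of 17 transcription factors and their regulators that act after SYK and CARD9, 1 was called higher and 5 lower in the α4β7− CD22− than in the α4β7+ subset, 1 and 6 in the CD22+ subset, and 0 and 1 between the later subsets, with medians of -0.33, -0.45, and -0.13. Of all genes, 3.70% and 4.35%, 5.60% and 6.39%, and 0.210% and 0.393% were called higher and lower in these comparisons. Nfkbia, the NF-κB inhibitor that NF-κB itself induces, averaged 16134.2 ± 1087.9, 1717.3 ± 111.1, and 466.1 ± 84.6 (log2 fold changes -3.23, -5.12, and -1.89, adjusted p at most 2.23e-07 by limma). Nfkbiz (-1.01 and -1.23), Bcl3 (-0.83 and -1.07), and Nfkb2 (-0.79 and -1.37), which encode NF-κB family members or cofactors, were lower, whereas Egr2 was higher (1.36 and 1.73). Nfkb1, which encodes the p50 subunit, was not called, with means between 3256.3 and 3674.8.

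Of 18 genes known to be induced through these receptors in myeloid cells, 13 were tested. In the α4β7− CD22− subset 2 were called higher and 8 lower than in the α4β7+ subset, in the CD22+ subset 1 and 9, and between the later subsets 0 and 3, with medians of -1.37, -1.67, and -0.51, against 3.70% and 4.35%, 5.60% and 6.39%, and 0.210% and 0.393% of all genes. These counts include genes that passed the limit on averages only through their α4β7+ values. Il6, Cxcl1, and Il23a, called lower in both later subsets, and Nos2, called lower in the CD22+ subset alone, had means under 10 in both later subsets. Their calls against the α4β7+ subset are not independent of the filter and support nothing here. Tnf averaged 179.1 ± 18.4, 29.66 ± 9.23, and 20.85 ± 7.0 (log2 fold changes -2.61 and -3.09, by limma). Ptgs2, the inducible prostaglandin synthase, averaged 6715.4 ± 1737.0, 1719.9 ± 300.4, and 1026.4 ± 162.0 (-1.94 and -2.69). The neutrophil chemokine genes Cxcl3 (-1.23, -2.42, and -1.19) and Cxcl2 (-0.61, -1.61, and -0.99) were called lower in all 3 comparisons, as was Il6. Il6 averaged 186.0 ± 43.0 and 7.45 ± 3.75, and in the CD22+ subset its mean was under the floor, at 0.487. Its call between the later subsets compares means that are both under the limit of 10, so it supports nothing here either. Il1b was called higher in both later subsets than in the α4β7+ subset (0.82 and 0.94), and the chemokine gene Ccl4, with means of 449.1 ± 149.7, 982.1 ± 260.1, and 649.1 ± 187.6, was called higher in the α4β7− CD22− subset (1.16, adjusted p = 0.00838 by limma). Many of these genes respond to other receptors too, and whether the receptors described here were engaged was not measured.

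The genes most like a receptor gene were found by Pearson's r of log2(normalized count + 1) over the 12 libraries, for 1 receptor of each signalling class. For Clec4e they were Plekhn1 (r = 0.989), Camk1 (0.988), Nfkbia (0.986), S100a10 (0.986), and Il6 (0.985). For Clec12a they were Olr1 (0.989), which encodes the lectin-like receptor for oxidized LDL, Pira6 (0.984), Inpp5j (0.980), Icam1 (0.980), and Cd24a (0.979). For Clec7a they were Rcl1 (0.905), Tmpo (0.897), Il10 (0.895), Galnt10 (0.891), and Il12rb2 (0.883). These values carry no p, since the libraries fall into 3 subsets and 2 genes that differ between subsets in the same way correlate for that reason alone.

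Markers of other cells were checked beside the called receptors. The sum of 9 neutrophil markers was 15149.4 to 22893.1, 7340.0 to 9367.1, and 4749.9 to 5165.2 in the 3 subsets, in the same order as Clec4e and Clec12a. Most of it was Retnlg, at 18828.0 ± 3509.0, 6708.7 ± 857.4, and 3052.9 ± 349.0, while Ngp and Cxcr2 were called higher in the later subsets. Ly6g was at most at 10.78, S100a8 at most at 1.03, and Camp at most at 1.97 in any library. S100a9 averaged 18.99 ± 16.3, 9.592 ± 3.58, and 2.873 ± 2.92 and was called lower in the CD22+ than in the α4β7+ subset (-2.46, adjusted p = 0.0251 by limma), the same direction as Clec4e. Like Clec4d, S100a9 passed the limit of 10 on the average only through the α4β7+ subset. Its call is thus not independent of the filter and supports nothing here. Ltf averaged 32.57 ± 13.2, 18.86 ± 14.1, and 13.47 ± 4.35 and was not called. Mpo did not pass the filter and ranged from 2.377 to 25.94, from 3.538 to 14.49, and from 2.667 to 10.56. None of the 6 B and plasma cell markers, the 5 markers of fibroblasts and endothelium, or the 9 tested markers of enterocytes and Paneth cells was called by limma in the 3 comparisons, and at an unadjusted p under 0.05 at most 1, 1, and 3 genes of any of these lists passed in the respective comparison. Of the 6 mast cell markers, Kit alone was tested and was not called, and Tpsb2 was at 0 in all 12 libraries. Of 3 T cell and innate lymphoid markers, 2 were called lower in the α4β7− CD22− than in the α4β7+ subset, against 4.35% of all genes, and the list summed to 619.6 to 822.0, 432.6 to 663.1, and 548.8 to 779.8. Of the eosinophil markers, 4 of 9 were called lower in the α4β7− CD22− subset and 6 of 9 in the CD22+ subset, Itgb7 included, against 4.35% and 6.39% of all genes. Cd22 was called higher in both (1.99 and 3.58). Since the subsets were sorted on CD22 and α4β7, the differences of Cd22 and Itgb7 reflect the gate. The 9 markers summed to 102134.9 to 117647.5, 76321.1 to 81182.5, and 68700.1 to 74095.0. The part of these differences in the receptor values was not tested.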

How the data were processed

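RNA of the 12 libraries was sequenced after a stranded total RNA kit with 3 ng of input. The submitters' processing notes name Trimmomatic 0.39, kallisto 0.46.1, DESeq2 1.38.2, and mm10 (GRCm38), and the strand setting of kallisto is not given in the sources used here. The deposited signal values are normalized counts, which the authors made with DESeq2 from estimated counts. Only 30.6% to 64.6% of low values lay within 5% of whole reads, so count tests were not run. Positions, transcript lengths, and shared 31-base words came from the GENCODE vM21 annotation (35968 of 36047 identifiers matched).

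All 12 libraries entered 1 limma fit (version 3.58.1, R 4.3.3) with a variance trend and a pseudocount of 1, after a filter on averages above 10, with p adjusted over all genes tested. The fit was tested on simulated data. Genes under the filter had exact permutation tests (scipy 1.17.1, Python 3.11.15, pandas 2.3.3), and figures used matplotlib 3.10.9. The receptor genes and all lists were chosen with earlier results of these data known. Named were, per list and comparison, up to 4 called genes with the largest fold change and a mean of at least 50, the cluster genes, and the 5 genes most similar to each of 3 receptors. Fcer1g, Tyrobp, Syk, Ptpn6, Nfkb1, Klra2, Clec2i, Il1b, Ccl4, the markers, and some further values of listed genes were added after their values were seen. A gene that the rule picks is not reported here.

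The labels do not say that replicate numbers pair the libraries. Residuals of same-numbered libraries correlated between -0.059 and 0.203, with 7 of 12 pairs over 0.1, among them all 4 between the later subsets (0.135 to 0.203), so pairing was partial and the fit without the block was kept. Alternatives were pseudocounts of 0.1 and 10, omitting the filter or setting it to 50, scaling by the 75th percentile or by quantiles, no trend, array weights, adjusted p alone, only the subsets compared, a replicate block, and each library left out. The replicate 4 libraries were left out, and ratios computed and tested, after seeing the data. Raw reads were not used here.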

Additional observations from a re-analysis of the deposited data

Results flagged for a closer look

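Of the 24 groups of 4 libraries formed by 8 receptor genes and 3 subsets, 1 held a library far from the others. Clec4n was at 83.86 normalized counts in α4β7− CD22− replicate 4, against 28.06 in the next library and 23.76 in the lowest. The gap was 0.928 of the subset's range, above the 95% critical value of Dixon's test for 4 values. Chance flags about 1 in 20 such groups. The same library had the highest Clec7a, Clec5a, Clec10a, and Clec12a and the highest C1q sum of its subset. The cause was not tested.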

How the results depend on the processing

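Of 261 alternative values for called fold changes of receptor genes, 253 kept their direction and side of the threshold and 8 lost the call, all of Clec4d or Clec12a as given above. Of 300 for uncalled fold changes, 286 kept both, 5 passed the threshold, all of Clec7a, and 9 changed sign. Those that changed sign came from leaving out 1 library: Clec4n ranged from -0.242 to 0.147 (CD22+ with α4β7+), from -0.051 to 0.542 (CD22+ with α4β7− CD22−), and from -0.585 to 0.008 (α4β7− CD22− with the mean of the others), and Clec4a2 from -0.151 to 0.05 between the later subsets. With the adjusted p alone, the 4 comparisons called 2265, 3223, 164, and 187 genes, against 1228, 1829, 92, and 96 with the fold limit. Without the trend, 54 genes were called between CD22+ and α4β7− CD22−, and 1 receptor gene against the mean of the others. Without the replicate 4 libraries these comparisons called 45 and 39 genes. Leaving out 1 library gave 56 to 101 genes and 1 to 3 receptor genes against the mean of the others. It gave 3 to 5 receptor genes in the CD22+ with α4β7+ comparison. With a replicate block, 1254, 1843, 100, and 109 genes were called, of which 1181, 1766, 88, and 87 were shared with the fit without it. The blocked, or paired, fit also called Clec7a lower in the CD22+ than in the α4β7+ subset (adjusted p = 0.0283) and below the mean of the others (0.0307). Between the later subsets, whose same-numbered pairs all correlated over 0.1, it changed no call of a receptor gene. In all, 6 of 12 libraries correlated best with their own number in both other subsets. With a filter at 50, Clec4d and Clec4n were not tested. Depth limits the values that did not exceed 3 reads, in 1 of 12 libraries for Clec5a and in 5 for Clec10a.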

Other observations

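Beyond the 8 receptors, 63 other genes of C-type lectin-like receptors or C-type lectin domains were listed, 36 of which were tested. In the α4β7− CD22− subset 3 were called higher and 4 lower than in the α4β7+ subset, in the CD22+ subset 3 and 4, and between the later subsets 1 and 1, with median log2 fold changes of -0.19, 0.05, and 0.10. Of all genes tested, 3.70% were called higher and 4.35% lower in the first comparison, 5.60% and 6.39% in the second, and 0.210% and 0.393% in the third. Cd69, a tissue retention receptor, was lower in each later subset (log2 fold changes -1.93, -2.89, and -0.96 in the 3 comparisons, adjusted p = 3.74e-08, 2.91e-10, and 0.000323 by limma), and Olr1 was lower than in the α4β7+ subset (-1.96 and -2.41). Klra2, of the Ly49 family, was also lower (-0.73 and -0.60).

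In the other direction, Klra17, another Ly49 gene, averaged 11.67 ± 3.45, 86.09 ± 43.7, and 264.1 ± 70.6 normalized counts (SD, n = 4), the α4β7+ subset first and the CD22+ subset last, and was called higher in all 3 comparisons (log2 fold changes 2.67, 4.39, and 1.72, adjusted p = 0.000159, 6.28e-07, and 0.0361 by limma). Every library of a later subset was above every library of an earlier one. Ly49 genes are near-identical in parts, so its level is uncertain. Clec2i was called higher in the CD22+ than in the α4β7+ subset (1.34, adjusted p = 0.000539).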
